A study of Mus musculus with 16 samples.

Results

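Apoe, Clu, Apod, Abca1, Abcg1, Lcat, Scarb1 and Lpl are genes of lipoprotein assembly, lipid export and lipoprotein uptake, and their RNA was followed here in astrocyte ribosomes and whole tissue from mouse striatum and hippocampus. They were found as the rows whose gene name equals one of these names, which gave 8 of the 24060 gene labels in each of the 16 tables, each found once. In the brain, astrocytes secrete particles that resemble high-density lipoprotein, built from apolipoproteins, phospholipid and cholesterol, and neurons take up cholesterol from them. ABC transporters load the particles with lipid, Lcat esterifies their cholesterol, and receptors and lipases take lipid off them again. Apoe, Abca1, Abcg1 and Lpl are known targets of the liver X receptors, nuclear receptors that sense oxysterols.

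Whole striata and hippocampi came from 4 mice, male and female, at postnatal day 63, of the genotype Aldh1l1-creERT2 hemi; Ribotag het on an FVB background crossed back to C57/Bl6N. In RiboTag mice, Cre recombinase adds a hemagglutinin tag to the ribosomal protein Rpl22, and the Aldh1l1 driver places that tag in astrocytes. The striatal IP (Str.IP) and hippocampal IP (Hip.IP) hold RNA precipitated with the tagged ribosomes, and the striatal input (Str.input) and hippocampal input (Hip.input) hold RNA of the cleared lysate of the same tissue. Animals 970, 971, 974 and 977 each gave 1 library of each of these 4 groups, all from the same genotype, and neither the sex of each animal nor how Cre was induced is given in the sources used here. Because the tag marks every cell in which the driver was active and each group is a bulk sample, fewer cells of a type and less RNA per cell cannot be told apart.

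Estimated depth, in units of 1000000 counted fragments, was 13.95 to 21.76 in striatal IP, 4.15 to 8.96 in striatal input, 18.9 to 22.61 in hippocampal IP and 9.03 to 12.24 in hippocampal input, so the striatal inputs were the shallowest. The labelled cell type was checked with 17 astrocyte markers, of which 17 rose in IP over input in each region, with a median log2 change of 3.87 in striatum and 4.13 in hippocampus. None of the 15 pan-neuronal markers was at 0 throughout the IPs of either region. Their median level in an animal's IP was 9.75%, 12.1%, 28% and 15.8% of its striatal input in animals 970, 971, 974 and 977, and 6.25%, 6.22%, 12.1% and 7.77% of its hippocampal input. This median was highest in animal 974 in both regions. The striatal inputs of animals 971 and 974 stood apart from the other 2 in Apoe and Lpl, and values without them are given beside the results they move. These 2 libraries were also the shallowest of the 16, at 5.78 and 4.15, with the fewest genes above 0 (16048 and 15508). The split was not confined to Apoe and Lpl. Fscn1, for example, had 14.8 and 6.42 scaled FPKM (defined below) in them, against 22.3 and 20.5 in animals 970 and 977. Fscn1 was picked below for its likeness to Scarb1 in these same libraries, so this example is not independent of the 8 genes. The part of depth in the split was not tested.

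Levels below are scaled FPKM, that is fragment counts normalised to gene length and sequencing depth and divided by a library scaling factor, and so can be compared between genes. Changes are log2 differences of scaled FPKM plus 1, with the standard error (SE) of a single limma fit to all 16 libraries, and are called at a Benjamini-Hochberg adjusted p under 0.05 over the 13470 genes tested. The added 1 understates changes of low genes. All 8 genes passed the filter of at least 1 FPKM in at least 4 libraries.

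In both regions the astrocyte IP held far more Apoe, Clu, Lcat and Abca1 RNA than the input and far less Apod, Lpl and Abcg1 RNA. In striatal IP against striatal input, 4 of the 8 genes rose and 4 fell. All 8 were called, where 65.0% of all genes tested were called in either direction, 33.5% higher and 31.4% lower. In hippocampal IP against hippocampal input again 4 rose and 4 fell, against 65.5% of all genes called, 30.1% higher and 35.5% lower. IP and input values did not overlap for 7 of the 8 genes in striatum, against 52.1% of all genes, and for 8 of the 8 in hippocampus, against 69.8%. The gene with overlap was Scarb1. The median log2 change over the 8 genes was 1.09 in striatum and 0.90 in hippocampus, against 0.01 and -0.10 over all genes tested, and single genes ranged from 5.04 for Apoe to -4.80 for Apod.

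**Figure D1:**
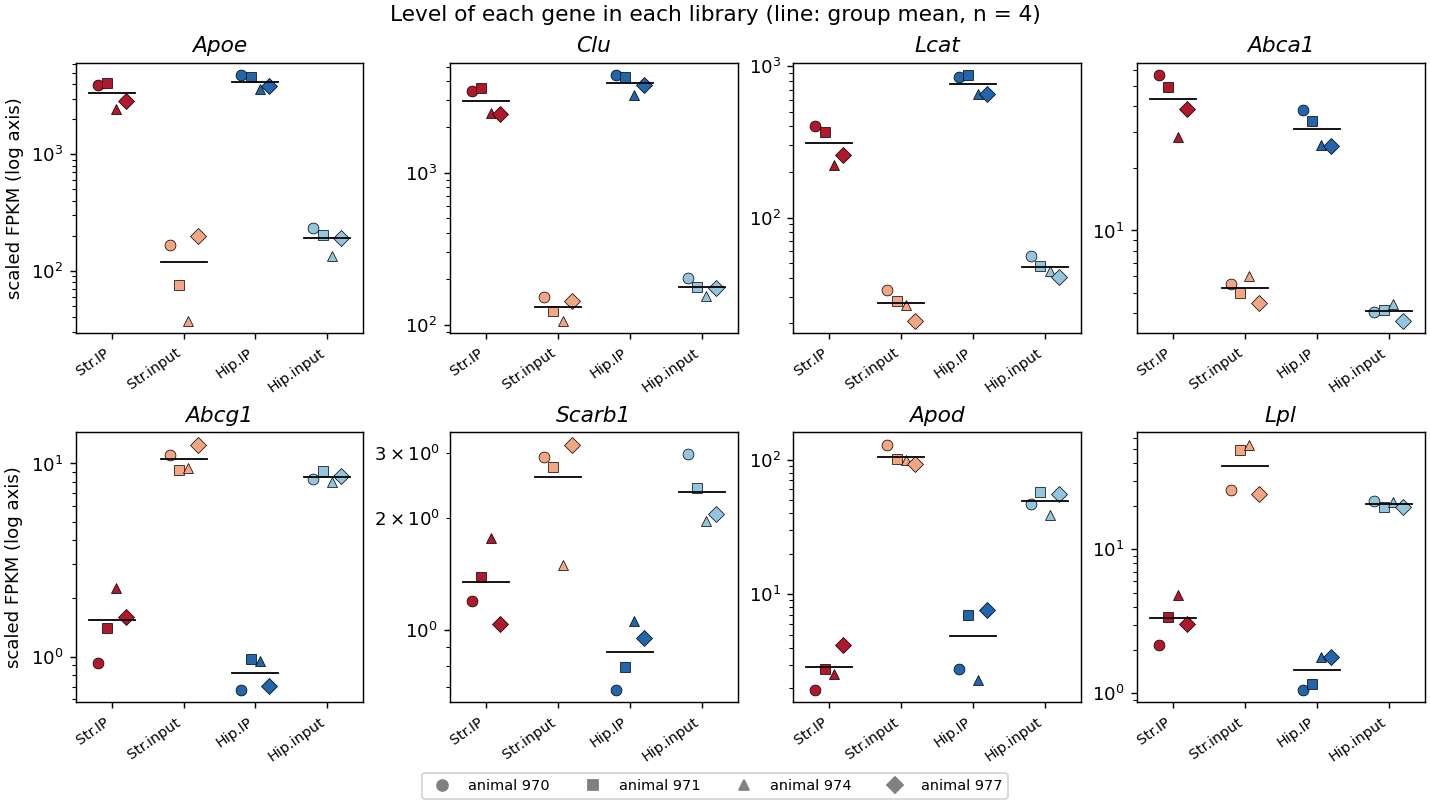
Scaled FPKM on a log axis for each gene, 1 point per library with the shape giving the animal, in striatal IP, striatal input, hippocampal IP and hippocampal input. Lines are means of 4 libraries. The IP points of Apoe, Clu, Lcat and Abca1 lie above the input points of the same region, those of Apod, Abcg1 and Lpl lie below, and the Scarb1 groups overlap in striatum.

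Apoe encodes the main apolipoprotein of the brain's own lipoproteins (chr7:19696109-19699188, minus strand, GRCm38/mm10). It had 3932, 4089, 2463 and 2838 scaled FPKM in the striatal IPs of animals 970, 971, 974 and 977, against 165, 74.8, 37.3 and 197 in their striatal inputs. It had 4753, 4621, 3609 and 3832 in the hippocampal IPs, against 231, 204, 134 and 190 in the hippocampal inputs. No IP value overlapped an input value, and among the 24060 labels Apoe ranked between 5 and 7 in every IP. In the inputs its rank ran from 64 to 1142 in striatum and from 72 to 143 in hippocampus. The log2 change of IP over input was 5.04 ± 0.38 in striatum (SE, adjusted p = 8.55e-09) and 4.48 ± 0.38 in hippocampus (adjusted p = 2.71e-08).

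The striatal inputs of animals 971 and 974 were low in Apoe and those of animals 970 and 977 high. The coefficient of variation was 63.3% in striatal input, against 24.1% in striatal IP, 13.5% in hippocampal IP and 21.4% in hippocampal input. The ratio of IP to input was 54.7 and 66.1 in the striatum of animals 971 and 974, and 23.8 and 14.4 in animals 970 and 977. In hippocampus it stayed between 20.2 and 26.9. Without those 2 striatal inputs the striatal log2 change was 4.17 ± 0.24 (adjusted p = 4.33e-09). The summed level of the 17 astrocyte markers did not split in this way. It was 1147, 1094, 1060 and 940 scaled FPKM in the striatal inputs of animals 970, 971, 974 and 977. That sum leans on its highest genes, such as Slc1a2 (335 ± 67.6 in striatal input, mean ± SD), and single genes differed. In the same order of animals, Fgfr3 of that list had 2.27, 2.06, 1.67 and 1.62. Aldoc, also on the list, varied more (111 ± 41.8). Gstm1, picked below for its likeness to Apoe, did split, with 249, 137, 62.7 and 226.

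Clu encodes clusterin, also called apolipoprotein J, a secreted chaperone carried on lipoproteins (chr14:65968483-65981547, plus strand). It had 3448, 3594, 2468 and 2433 scaled FPKM in the striatal IPs of animals 970, 971, 974 and 977, against 152, 123, 106 and 143 in the striatal inputs. It had 4384, 4308, 3247 and 3769 in the hippocampal IPs, against 202, 178, 155 and 174 in the hippocampal inputs. The groups did not overlap, and in each region the IPs of animals 970 and 971 were the highest. Clu rose by a log2 change of 4.49 ± 0.17 in striatal IP (adjusted p = 1.38e-11) and 4.46 ± 0.17 in hippocampal IP (adjusted p = 8.92e-12). The IP to input ratio was between 17 and 29.3 in striatum and between 20.9 and 24.2 in hippocampus, a narrower range than that of Apoe in striatum. In the striatal inputs, animals 971 and 974 were the lowest for Clu too, by less than for Apoe, and without them the striatal change was 4.31 ± 0.19 (adjusted p = 8.23e-10).

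Apoe and Clu together made up 94.6% of the 8 genes' summed level in striatal IP, 55.3% in striatal input, 91.1% in hippocampal IP and 73.3% in hippocampal input. Their order was not settled by these libraries. Apoe was the higher in 3 of 4 striatal IPs, 4 of 4 hippocampal IPs and 3 of 4 hippocampal inputs, and Clu was the higher in 2 of 4 striatal inputs, with overlapping ranges in each group.

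Apod encodes apolipoprotein D, a lipocalin that binds small hydrophobic ligands (chr16:31296192-31314808, minus strand), and it took the opposite direction from the other 2 apolipoprotein genes. It had 1.94, 2.78, 2.56 and 4.21 scaled FPKM in the striatal IPs of animals 970, 971, 974 and 977, against 129, 101, 99.1 and 92.5 in the striatal inputs. It had 2.78, 6.98, 2.29 and 7.61 in the hippocampal IPs, against 47.1, 57.2, 38.8 and 55.4 in the hippocampal inputs. Every IP value lay below every input value of its region. Apod fell by a log2 change of -4.80 ± 0.27 in striatal IP (adjusted p = 3.66e-10) and -3.21 ± 0.27 in hippocampal IP (adjusted p = 2.53e-08). The low IP values rest on an estimated 83 to 158 fragments in striatum and 98 to 329 in hippocampus.

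Apod is known in brain from oligodendrocytes and from cells of the vessel walls and meninges. Of the 8 mural and fibroblast markers tested, 5 fell and 2 rose in striatal IP, and 5 fell and 1 rose in hippocampal IP. Of 15 oligodendrocyte markers, 14 fell in each region and none was at 0 in a whole group. The other one, Cnp, rose in hippocampal IP (1.42 ± 0.19, adjusted p = 5.8e-06) and had a change of 0.39 ± 0.19 in striatal IP (adjusted p = 0.0844). The 15 markers summed to 109 to 172 scaled FPKM in striatal IP and 590 to 710 in striatal input. In hippocampus they summed to 98.3 to 108 in IP and 258 to 303 in input. The IP sums lean on Cnp, which averaged 51.7 ± 10.4 in striatal IP and 69 ± 7.04 in hippocampal IP (mean ± SD). Its inputs averaged 39.9 ± 12.1 and 25.1 ± 2.13. The median IP level of the 15 markers was 8.41% to 28.2% of input in striatum and 6.08% to 16.1% in hippocampus. The Apod level in IP was 1.5% to 4.55% of input in striatum and 5.89% to 13.7% in hippocampus. In striatum these Apod percentages lay below those of the oligodendrocyte list. Within hippocampal IP, Apod was high in animals 971 and 977 and low in animals 970 and 974. The 13 mural and fibroblast markers summed to 18.7, 22.5, 20 and 21.7 scaled FPKM in the hippocampal IPs of animals 970, 971, 974 and 977, and their part in the Apod values was not tested.

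Abca1 encodes the transporter that passes cholesterol and phospholipid to lipid-poor apolipoproteins (chr4:53030787-53159895, minus strand). It had 56.3, 49.3, 28.2 and 38.5 scaled FPKM in the striatal IPs of animals 970, 971, 974 and 977, against 5.53, 4.96, 6.01 and 4.48 in the striatal inputs. It had 38.3, 34, 26 and 25.6 in the hippocampal IPs, against 4.05, 4.14, 4.4 and 3.66 in the hippocampal inputs. The groups did not overlap, and animal 974 had the lowest striatal IP and the highest striatal input. Abca1 rose by a log2 change of 2.78 ± 0.18 in striatal IP (adjusted p = 1.49e-09) and 2.64 ± 0.18 in hippocampal IP (adjusted p = 2.01e-09).

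Promoters are shown for Apoe and Abca1, which both rose in IP and are liver X receptor targets, and for Apod, which fell, so that the letters around their starts can be compared. Each is the RefSeq window (GRCm38.p6) at the annotated start of the gene, from 250 bases before to 50 bases after it, 5′ to 3′ on the gene's strand, chr7:19699139-19699438 for Apoe, chr4:53159846-53160145 for Abca1 and chr16:31314759-31315058 for Apod, all on the minus strand. Capitals mark the only motif match among them.
Apoe: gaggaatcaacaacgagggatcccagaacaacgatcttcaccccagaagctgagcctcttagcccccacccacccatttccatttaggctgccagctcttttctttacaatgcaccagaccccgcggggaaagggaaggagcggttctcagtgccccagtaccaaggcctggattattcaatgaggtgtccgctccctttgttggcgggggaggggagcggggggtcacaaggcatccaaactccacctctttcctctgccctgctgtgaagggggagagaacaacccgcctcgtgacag
Abca1: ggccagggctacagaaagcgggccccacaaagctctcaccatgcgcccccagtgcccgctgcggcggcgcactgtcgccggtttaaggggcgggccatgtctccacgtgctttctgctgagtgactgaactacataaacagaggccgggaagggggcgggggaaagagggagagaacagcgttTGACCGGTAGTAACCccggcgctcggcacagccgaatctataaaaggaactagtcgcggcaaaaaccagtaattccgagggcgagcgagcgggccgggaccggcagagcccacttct
Apod: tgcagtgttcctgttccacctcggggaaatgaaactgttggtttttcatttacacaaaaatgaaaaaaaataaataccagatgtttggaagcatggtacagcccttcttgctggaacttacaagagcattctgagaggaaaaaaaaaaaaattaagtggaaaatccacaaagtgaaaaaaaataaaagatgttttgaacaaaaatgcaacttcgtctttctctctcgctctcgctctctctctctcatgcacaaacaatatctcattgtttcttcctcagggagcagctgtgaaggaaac
The motif searched was the letters GGTNA, then 5 bases of any kind, then GGTNA again, a loose form of the repeat that liver X receptors bind, on both strands. Abca1 held it from position -67 to -53 relative to its start, reading along the opposite strand. Of 32851 promoter windows, 236 held it (0.718%), and of the 4 genes with a window, Apoe, Abca1, Apod and Lcat, only Abca1 did. The sterol regulatory element letters TCACCCCAC were in 181 windows (0.551%) and in none of these 4 genes' windows. The windows had 57.7% G and C in Apoe, 62.7% in Abca1, 61.3% in Lcat and 37.3% in Apod, against a median of 52.7% over all windows. RefSeq gives Apoe 2 further windows inside the gene, not shown, with 51% and 52% G and C and no match to either motif.

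Abcg1 encodes a transporter that adds cholesterol to particles already formed (chr17:31057675-31117988, plus strand), and unlike Abca1 it was lower in IP. It had 0.929, 1.41, 2.27 and 1.61 scaled FPKM in the striatal IPs of animals 970, 971, 974 and 977, against 11.1, 9.22, 9.5 and 12.5 in the striatal inputs. It had 0.671, 0.976, 0.947 and 0.706 in the hippocampal IPs, against 8.35, 9.15, 8.06 and 8.64 in the hippocampal inputs. The groups were well apart in both regions. Abcg1 fell by a log2 change of -2.20 ± 0.15 in striatal IP (adjusted p = 1.74e-09) and -2.39 ± 0.15 in hippocampal IP (adjusted p = 4.82e-10). Its IP level was 8.41% to 23.9% of input in striatum and 8.03% to 11.8% in hippocampus, and in both it was highest in animal 974. The medians of several marker lists were close to this and also highest in animal 974. They were 9.75% to 28% in striatum and 6.22% to 12.1% in hippocampus for the pan-neuronal list, 8.41% to 28.2% and 6.08% to 16.1% for the oligodendrocyte list, and 10.5% to 17.7% and 6.59% to 12.7% for the 13 microglial markers. The part of RNA from these cells in the Abcg1 values of the IPs was not tested. The hippocampal IP values rest on an estimated 80 to 123 fragments.

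Lcat encodes lecithin-cholesterol acyltransferase, which esterifies cholesterol on the particles (chr8:105939551-105943382, minus strand). It had 405, 369, 221 and 258 scaled FPKM in the striatal IPs of animals 970, 971, 974 and 977, against 33.4, 28.1, 26.6 and 20.8 in the striatal inputs. It had 849, 871, 657 and 657 in the hippocampal IPs, against 55.7, 47.8, 44.1 and 40.5 in the hippocampal inputs. No IP value overlapped an input value, and animals 970 and 971 had the highest IP values in each region. Lcat rose by a log2 change of 3.45 ± 0.20 in striatal IP (adjusted p = 3.32e-10) and 3.98 ± 0.20 in hippocampal IP (adjusted p = 5.01e-11). It ranked between 71 and 99 of the 24060 labels in striatal IP and between 31 and 36 in hippocampal IP.

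Scarb1 encodes scavenger receptor class B type 1, which binds high-density lipoprotein and takes up its cholesteryl esters (chr5:125277087-125341094, minus strand). It had 1.2, 1.39, 1.77 and 1.04 scaled FPKM in the striatal IPs of animals 970, 971, 974 and 977, against 2.93, 2.75, 1.5 and 3.16 in the striatal inputs. It had 0.688, 0.793, 1.06 and 0.949 in the hippocampal IPs, against 2.99, 2.42, 1.97 and 2.06 in the hippocampal inputs. It was the lowest or next to lowest of the 8 genes in every group, and the striatal groups overlapped because animal 974 had more in its IP than in its input. Scarb1 fell by a log2 change of -0.59 ± 0.16 in striatal IP (adjusted p = 0.00422) and -0.84 ± 0.16 in hippocampal IP (adjusted p = 0.000231). Without the striatal inputs of animals 971 and 974 the striatal change was -0.79 ± 0.15 (adjusted p = 0.000388). The striatal input values rest on as few as 53 estimated fragments.

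Lpl encodes lipoprotein lipase, which releases fatty acids from triglyceride in lipoproteins (chr8:68880491-68907448, plus strand). It had 2.15, 3.4, 4.83 and 3.02 scaled FPKM in the striatal IPs of animals 970, 971, 974 and 977, against 25.8, 49.3, 53.5 and 24.4 in the striatal inputs. It had 1.05, 1.16, 1.78 and 1.78 in the hippocampal IPs, against 21.7, 19.8, 21.4 and 19.6 in the hippocampal inputs. The groups did not overlap, and the striatal inputs of animals 971 and 974, which were low in Apoe, were high in Lpl. Lpl fell by a log2 change of -3.12 ± 0.24 in striatal IP (adjusted p = 8.04e-09) and -3.16 ± 0.24 in hippocampal IP (adjusted p = 5.53e-09). Without those 2 inputs the striatal change was -2.62 ± 0.19 (adjusted p = 3.79e-08). The Lpl level in IP was 6.9% to 12.4% of input in striatum and 4.85% to 9.08% in hippocampus. The summed pan-neuronal markers were 3099 and 3610 scaled FPKM in the striatal inputs of animals 971 and 974, against 2472 and 2307 in those of animals 970 and 977. The summed mural and fibroblast markers were 68 and 62.2 in the striatal inputs of animals 971 and 974, against 44.6 and 38.9 in those of animals 970 and 977. The neuronal sum leans on Snap25 (1286 ± 282 in striatal input, mean ± SD) and Snhg11 (536 ± 229), and the mural and fibroblast sum on Rgs5 (34.2 ± 14.5). Single genes lower in IP went both ways. Gap43, picked below for its likeness to Abcg1, was lower in animals 971 and 974. It had 101 and 77.4 in their striatal inputs, against 124 and 114 in those of animals 970 and 977. Aff3, picked below for following Lpl, had 56.5 and 81.2 against 33.4 and 25.2. The part of neuronal, mural and fibroblast RNA in the Lpl values was not tested.

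**Figure D2:**
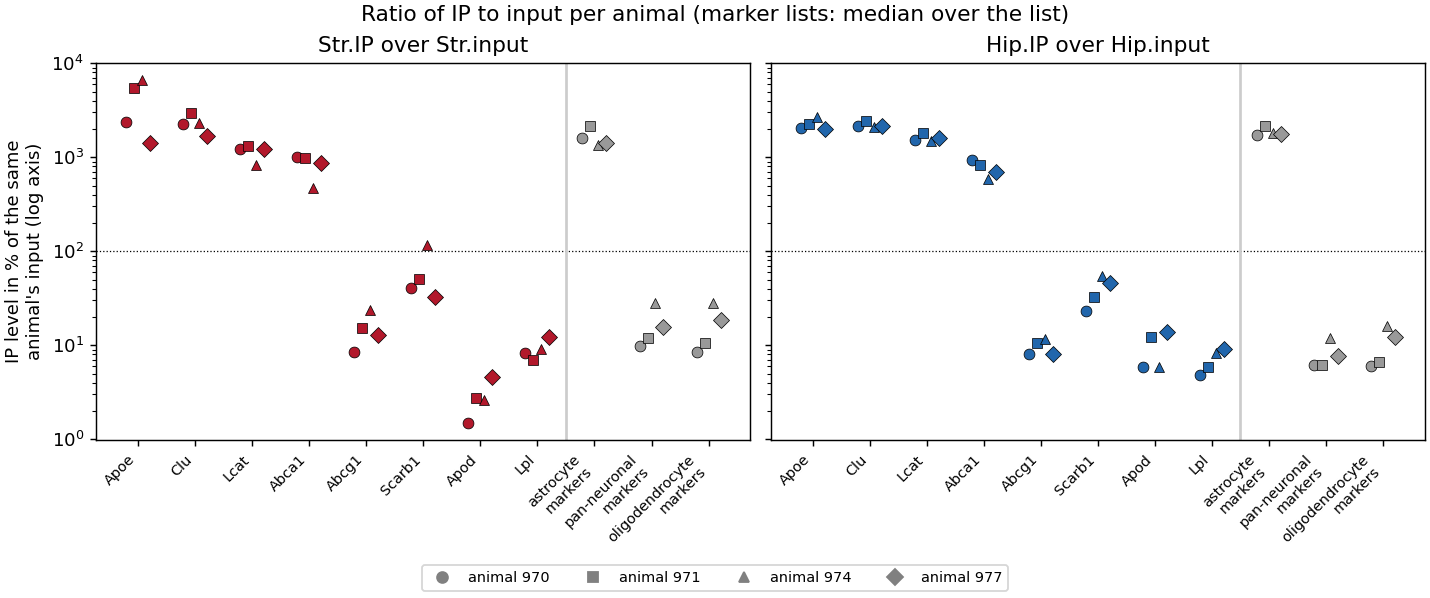
IP level as a percentage of the input level of that animal, on a log axis, for the 8 genes and for the medians of the astrocyte, pan-neuronal and oligodendrocyte marker lists, in striatum and hippocampus. The dotted line marks equal levels, and Apod lies between 1.5% and 4.55% in striatum, below each of the 3 lists.

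In striatal IP the order of the means was Apoe, Clu, Lcat, Abca1, Lpl, Apod, Abcg1 and Scarb1, and in hippocampal IP it was Apoe, Clu, Lcat, Abca1, Apod, Lpl, Scarb1 and Abcg1. The first 4 were in the same places in both, with no overlap between Clu and Lcat, Lcat and Abca1, or Abca1 and the next gene. In striatal IP the neighbours Lpl and Apod, Apod and Abcg1, and Abcg1 and Scarb1 overlapped. In hippocampal IP, Lpl and Scarb1 and Scarb1 and Abcg1 overlapped. In striatal input the order of the means was Clu, Apoe, Apod, Lpl, Lcat, Abcg1, Abca1 and Scarb1, and in hippocampal input it was Apoe, Clu, Apod, Lcat, Lpl, Abcg1, Abca1 and Scarb1. In striatal input Clu and Apoe, Apoe and Apod, and Lpl and Lcat overlapped, and Apoe was above Apod in 2 of 4 animals. In hippocampal input Apoe and Clu, and Apod and Lcat, overlapped, and Apod was above Lcat in 2 of 4 animals. By its mean Apod was in place 6 in striatal IP and 5 in hippocampal IP, and in place 3 in both inputs, where that place is not settled. It made up 0.0459% of the 8 genes' summed level in striatal IP and 0.0552% in hippocampal IP, against 24.5% in striatal input and 9.98% in hippocampal input.

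Between the regions, Lcat had the largest change of the 8 genes in astrocyte ribosomes. In striatal IP against hippocampal IP, 3 of the 8 genes were called, 2 higher and 1 lower, where 12.6% of all genes were called, 7.18% higher and 5.38% lower. Values of the groups did not overlap for 2 of the 8 genes, Lcat and Lpl, against 19.6% of all genes tested. Lcat averaged 313 ± 87.8 scaled FPKM in striatal IP and 759 ± 118 in hippocampal IP (SD, n = 4 each), and was lower in striatum in 4 of 4 animals. It fell by a log2 change of -1.30 ± 0.20 (adjusted p = 0.000221), and stayed called without each library in turn (-1.44 to -1.15).

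Lpl and Abcg1 were higher in striatal IP than in hippocampal IP, at low levels in both. Lpl averaged 3.35 ± 1.12 in striatal IP and 1.44 ± 0.389 in hippocampal IP (SD, n = 4 each), with a log2 change of 0.81 ± 0.24 (adjusted p = 0.0316). Abcg1 averaged 1.55 ± 0.557 in striatal IP and 0.825 ± 0.159 in hippocampal IP, with a log2 change of 0.46 ± 0.15 (adjusted p = 0.0472). Both were higher in 4 of 4 animals, and the Abcg1 groups overlapped. Neither was called with a pseudocount of 5 (adjusted p = 0.237 for Lpl and 0.188 for Abcg1) or with no filter on low values (adjusted p = 0.0511 for Lpl and 0.0599 for Abcg1). The pan-neuronal median ratio of IP to input was higher in the striatum than in the hippocampus of each animal. The Lpl ratio was below it in 4 of 4 striatal and 3 of 4 hippocampal IPs and the Abcg1 ratio in 3 of 4 striatal and 1 of 4 hippocampal IPs, so taking that share of the input away leaves little or nothing to compare. The part of neuronal RNA in these 2 differences was not tested. Without striatal IP 974 the changes were 0.66 (adjusted p = 0.124) for Lpl and 0.33 (adjusted p = 0.175) for Abcg1.

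The other 5 genes were not called between the IPs. Apoe averaged 3330 ± 803 scaled FPKM in striatal IP and 4204 ± 568 in hippocampal IP, while Clu averaged 2986 ± 621 in striatal IP and 3927 ± 530 in hippocampal IP (SD, n = 4 each). Their log2 changes were -0.36 with a 95% interval of -1.17 to 0.45 for Apoe (adjusted p = 0.63) and -0.41 with an interval of -0.77 to -0.05 for Clu (adjusted p = 0.142). Both were lower in striatum in 4 of 4 animals. With the animal as a replicate block, Clu was called at the same change (adjusted p = 0.0321). The Abca1 change was 0.44 with an interval of 0.05 to 0.82 (adjusted p = 0.142), higher in 4 of 4 animals, and it was called without striatal IP 974 (0.62, adjusted p = 0.023). The Apod change was -0.51 with an interval of -1.09 to 0.07 (adjusted p = 0.268), and the Scarb1 change 0.32 with an interval of -0.02 to 0.66 (adjusted p = 0.233).

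In whole tissue, Apod and Lpl were higher and Lcat lower in striatal input than in hippocampal input. Again 3 of the 8 genes were called, 2 higher and 1 lower, where 36.3% of all genes were called, 14.5% higher and 21.8% lower. The groups did not overlap for 6 of the 8 genes, all but Apoe and Scarb1, against 33.4% of all genes. Apod averaged 105 ± 16.2 scaled FPKM in striatal input and 49.6 ± 8.45 in hippocampal input (SD, n = 4 each), a log2 change of 1.08 ± 0.27 (adjusted p = 0.00607). Of the 15 oligodendrocyte markers, 11 were higher in striatal input, and their sums were 590 to 710 scaled FPKM in striatal input and 258 to 303 in hippocampal input. Their part in the Apod difference was not tested.

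Lcat averaged 27.2 ± 5.18 scaled FPKM in striatal input and 47 ± 6.49 in hippocampal input (SD, n = 4 each), a log2 change of -0.77 ± 0.20 (adjusted p = 0.00569). Lpl averaged 38.2 ± 15.3 in striatal input and 20.6 ± 1.07 in hippocampal input, a log2 change of 0.77 ± 0.24 (adjusted p = 0.0181). The Lpl call rests on the striatal inputs of animals 971 and 974, and without them its change was 0.27 ± 0.19 (adjusted p = 0.352). Without them Lcat changed by -0.80 ± 0.25 (adjusted p = 0.0277) and Apod by 1.14 ± 0.36 (adjusted p = 0.0322). The Apoe change was -0.92 with a 95% interval of -1.73 to -0.11 (adjusted p = 0.0717), and -0.04 (adjusted p = 0.929) without them. The Clu change was -0.44 with an interval of -0.80 to -0.08 (adjusted p = 0.0517), and -0.26 (adjusted p = 0.375) without them. With the animal as a replicate block, Apoe (adjusted p = 0.028) and Clu (adjusted p = 0.00928) were called, which made 5 of the 8.

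**Figure D3:**
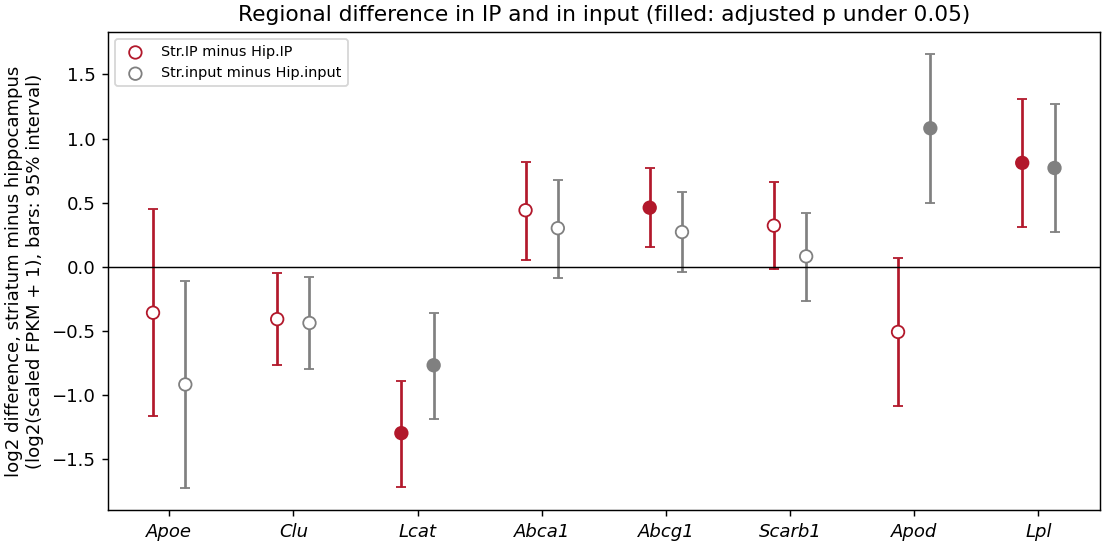
Log2 difference of striatum minus hippocampus for each gene, in IP and in input, with 95% intervals and filled points where the adjusted p was under 0.05. Lcat is lower in striatum in both kinds of library, and Apod has a positive difference in input (1.08) and a negative one in IP (-0.51).

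The change of IP over input differed between the regions for 1 of the 8 genes, where 13.8% of all genes were called, 8.47% higher and 5.33% lower. This gene was Apod, for which the striatal change minus the hippocampal change was -1.59 ± 0.39 on the log2 scale (adjusted p = 0.0112). It was -1.65 ± 0.46 without the striatal inputs of animals 971 and 974 (adjusted p = 0.0323), and ran from -1.83 to -1.37 when each library was left out in turn. The other 7 were not called. The Lcat difference was -0.53 with a 95% interval of -1.11 to 0.06 (adjusted p = 0.22). The Apoe difference was 0.56 with an interval of -0.59 to 1.71 (adjusted p = 0.521), and -0.32 (adjusted p = 0.583) without those 2 inputs. The Clu difference was 0.03 with an interval of -0.47 to 0.54 (adjusted p = 0.945), and -0.15 (adjusted p = 0.77) without them. The Lpl difference was 0.04 with an interval of -0.67 to 0.75 (adjusted p = 0.956), and 0.54 ± 0.25 (adjusted p = 0.195) without them.

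The other genes of lipid transport and sterol handling were described from 7 lists. Their counts stand beside those of all genes tested, of which 33.5% rose and 31.4% fell in striatal IP, with a median log2 change of 0.01. In hippocampal IP 30.1% of all genes rose and 35.5% fell, with a median of -0.10. Between the IPs 7.18% of all genes were higher and 5.38% lower in striatum. Levels in this account of the lists are means of 4 libraries ± SD in scaled FPKM, and the lists share the IP and input libraries with the results above. Of 13 lipoprotein receptors and adaptors tested, 9 rose and 3 fell in striatal IP, with a median log2 change of 0.77, and 8 rose and 3 fell in hippocampal IP, with a median of 0.49. Lrp1, a large endocytic receptor for Apoe, had 97.8 ± 24.1 in striatal IP, 10.5 ± 2.54 in striatal input, 116 ± 10.8 in hippocampal IP and 14 ± 1.32 in hippocampal input. Its log2 change over input was 3.09 ± 0.18 in striatum (adjusted p = 4.5e-10) and 2.96 ± 0.18 in hippocampus (adjusted p = 4.82e-10). Lrp4, a receptor of the same family, rose by 4.02 ± 0.13 in striatal IP (adjusted p = 7.57e-12) and by 4.19 ± 0.13 in hippocampal IP (adjusted p = 4e-12). Unlike Scarb1, its relative Scarb2, a lysosomal membrane protein, rose by 2.34 ± 0.16 in striatal IP (adjusted p = 3.51e-09) and by 2.47 ± 0.16 in hippocampal IP (adjusted p = 1.43e-09). Between the IPs, 4 of the 13 were lower in striatum, among them Lrp4 (-0.62 ± 0.13, adjusted p = 0.00306) and Scarb2 (-0.66 ± 0.16, adjusted p = 0.0139).

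Only 3 of 16 other apolipoprotein genes passed the filter. Apoc1, which lies in the Apoe gene cluster and encodes a small lipoprotein component, had 4.32 ± 1.77 scaled FPKM in striatal IP, 0.664 ± 0.564 in striatal input, 5.8 ± 0.439 in hippocampal IP and 0.847 ± 0.146 in hippocampal input. It rose by a log2 change of 1.67 ± 0.23 in striatal IP (adjusted p = 7.1e-06) and 1.88 ± 0.23 in hippocampal IP (adjusted p = 1.62e-06). Of the other 2, Apoo and Apool, which encode mitochondrial inner membrane proteins despite their names, Apool rose in hippocampal IP (0.49 ± 0.18, adjusted p = 0.0211). The 13 genes that did not pass included Apoa1, Apob and Apom.

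Of 13 other ABC lipid transporters tested, 8 rose and 3 fell in striatal IP and 8 rose and 4 fell in hippocampal IP, with medians of 0.57 and 0.56. The peroxisomal fatty acid transporter gene Abcd3 had 89.1 ± 21.6 scaled FPKM in striatal IP, 22.1 ± 3.4 in striatal input, 98 ± 15.8 in hippocampal IP and 19.4 ± 1.59 in hippocampal input, which set it above Abca1. Abcb1a, an efflux transporter of the blood-brain barrier endothelium, fell by -1.16 ± 0.12 in striatal IP (adjusted p = 4.37e-07) and -1.10 ± 0.12 in hippocampal IP (adjusted p = 7.15e-07). Of 11 lipases and remodelling genes, 8 rose and 1 fell in striatal IP, and 9 rose and 1 fell in hippocampal IP, with medians of 1.02 and 0.78. Pla2g7, a lipoprotein-associated phospholipase, was near Lcat in level, with 346 ± 89.7 in striatal IP, 27.4 ± 5.76 in striatal input, 665 ± 103 in hippocampal IP and 32.5 ± 4.16 in hippocampal input. Between the IPs, 3 of these 11 were lower in striatum. They were Pla2g7 (-0.97 ± 0.19, adjusted p = 0.00226), Nceh1, a cholesteryl ester hydrolase (-0.61 ± 0.13, adjusted p = 0.00383), and Angptl4, a secreted inhibitor of Lpl (-1.03 ± 0.17, adjusted p = 0.000562). Angptl4 had 3.04 ± 0.558 in striatal IP and 7.23 ± 1.07 in hippocampal IP, the reverse of the direction of Lpl.

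Of 16 sterol sensing regulators tested, 9 rose and 4 fell in striatal IP and 9 rose and 2 fell in hippocampal IP, with medians of 0.65 and 0.67. Srebf1, a sterol regulatory factor that is itself a liver X receptor target, rose by 4.05 ± 0.23 in striatal IP (adjusted p = 3.07e-10) and by 3.80 ± 0.23 in hippocampal IP (adjusted p = 3.97e-10). Rxrg, a retinoid X receptor, had 4.2 ± 1.99 scaled FPKM in striatal IP, 9.58 ± 2.51 in striatal input, 0.165 ± 0.0458 in hippocampal IP and 0.594 ± 0.11 in hippocampal input. It was higher in striatal IP than in hippocampal IP by 2.08 ± 0.23 (adjusted p = 1.02e-05) and in striatal input than in hippocampal input by 2.70 ± 0.23 (adjusted p = 9.77e-08). Against input, Rxrg changed by -1.07 ± 0.23 in striatal IP (adjusted p = 0.000557) and -0.45 ± 0.23 in hippocampal IP (adjusted p = 0.0895). The part of RNA from other cells in its difference between the IPs was not tested.

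Of 17 genes of intracellular cholesterol handling, 7 rose and 1 fell in striatal IP and 10 rose and 1 fell in hippocampal IP, with medians of 0.20 and 0.79. In striatal IP 9 of the 17 were not called, where 65.0% of all genes were called. Npc1, which moves cholesterol out of lysosomes, rose by 2.16 ± 0.13 in striatal IP (adjusted p = 4.97e-10) and by 2.51 ± 0.13 in hippocampal IP (adjusted p = 7.01e-11). Cav1, a caveolar scaffold protein that binds cholesterol, moved in opposite directions. It had 0.62 ± 0.0782 scaled FPKM in striatal IP and 1.75 ± 0.328 in striatal input (-0.76 ± 0.13, adjusted p = 7.23e-05), and 5.6 ± 1.02 in hippocampal IP and 1.84 ± 0.281 in hippocampal input (1.21 ± 0.13, adjusted p = 3.54e-07). The difference of these changes was -1.97 ± 0.18 (adjusted p = 2.86e-06). Of 22 genes of cholesterol synthesis, 19 rose and 3 fell in striatal IP and 20 rose and 2 fell in hippocampal IP, with medians of 1.90 and 1.98. Between the IPs, 13 of these 22 were lower in striatum, with a median of -0.52 against -0.02 over all genes tested, of which 5.38% were lower. Between the same IPs, 5 of the 17 astrocyte markers were lower in striatum (median -0.37) and 8 of the 15 oligodendrocyte markers higher (median 0.86), and the part of cell composition in the list's change was not tested. The 13 cholesterol synthesis genes lower in striatal IP included Hmgcs1, an early enzyme of the pathway (-0.66 ± 0.15, adjusted p = 0.00598). They also included Cyp51, which removes a methyl group from lanosterol (-0.77 ± 0.11, adjusted p = 0.000149).

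**Figure D4:**
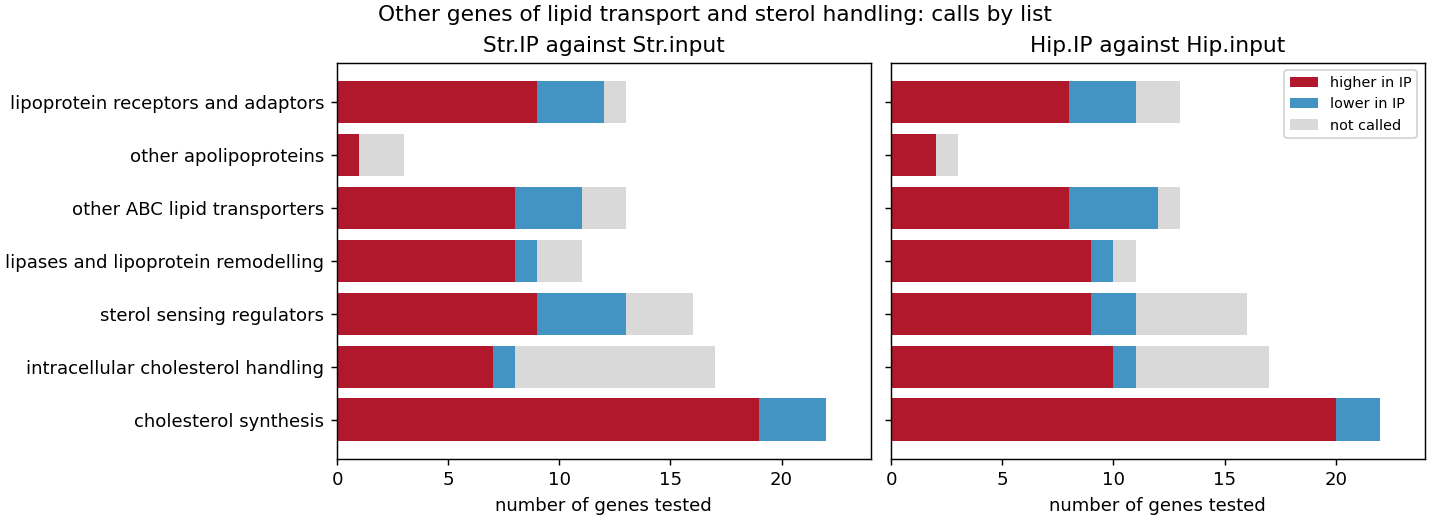
Number of genes called higher in IP, lower in IP or not called, for the 7 lists of lipid transport and sterol handling, in striatum and hippocampus. Cholesterol synthesis has the most genes higher in IP, 19 of 22 in striatum and 20 of 22 in hippocampus.

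Genes whose pattern was most like that of Apoe, Clu, Abca1, Lcat, Abcg1, Scarb1 and Apod were taken as those with the highest Pearson correlation of log2 scaled FPKM plus 1 over the 16 libraries. The points share fraction, region and animal, so any genes that differ strongly between IP and input correlate. Gstm1, Slc27a1 and Slc12a9 were most like Apoe (0.998 each), and Fads1, Ppap2b and Cbs most like Clu (0.999 each). Prrx1 (0.997), Gm973 (0.995) and Timp3 (0.994) were most like Abca1. Slc14a1 (0.996), Eps8 (0.995) and Farp1 (0.993) were most like Lcat. Slc14a1 had the regional difference of Lcat, with 12.2 to 23 scaled FPKM in the striatal IPs and 37.4 to 49.8 in the hippocampal IPs. That follows in part from the pick, because Slc14a1 was chosen by its correlation with Lcat in these same libraries. Of the genes lower in IP, Abcg1 was most like Ndrg4, Pdzd4 and Gap43 (0.990 each), Scarb1 most like Lpcat4 (0.959), Osbp2 (0.954) and Fscn1 (0.953), and Apod most like Msl1 (0.976), Spop (0.973) and Zfp280b (0.972).

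After the 4 group means were removed, the genes that followed Apod from library to library were Igf2 (0.856), Slc13a4 (0.816) and Rnase13 (0.751) over 16 libraries. Igf2 encodes a growth factor known in adult brain from the choroid plexus, meninges and vessels. It had 0.538, 1.08, 0.523 and 2.16 scaled FPKM in the hippocampal IPs of animals 970, 971, 974 and 977, and Slc13a4, a sulfate transporter gene, had 0.553, 1.8, 1.1 and 3.69. For Igf2 as for Apod, animals 971 and 977 were the high ones. This likeness follows from the pick, because Igf2 was chosen by its correlation with Apod in these same libraries. The 11 ependymal and choroid plexus markers, none at 0 throughout the hippocampal IPs, summed to 13.1, 17.6, 31.3 and 81 scaled FPKM in those of animals 970, 971, 974 and 977. This sum leans on Ttr, which averaged 21.5 ± 30.8 in hippocampal IP (SD, n = 4), while Rarres2 of the same list averaged 9.54 ± 1.69. The part of these markers' cells in the Apod values was not tested. The genes that followed Apoe were Fbxo2 (0.989), Ppp1r14b (0.988) and Caskin1 (0.983), and those that followed Lpl were Aff3 (0.959), Stradb (0.955) and A730090N16Rik (0.951). All of them showed the split of the striatal inputs. Fbxo2 had 14.9, 5.19, 2.16 and 14.5 scaled FPKM in those of animals 970, 971, 974 and 977. In the same order, Aff3 had 33.4, 56.5, 81.2 and 25.2. The part of the inputs of animals 971 and 974 in these correlations was not tested.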

How the data were processed

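RNA sequencing was measured in 16 libraries from the striatum and hippocampus of 4 animals, as IP and input. Per the submitters' processing notes, bcl2fastq 2.17, STAR, HTSeq and the mm10 build were used, with roles not given in the sources used here. The deposited tables hold FPKM, 1 table per library. The unit follows from the description of the tables and from low values, which lie on steps that depend on gene length. Fragments and depth were estimated from these steps and GENCODE vM21 exon lengths, so their absolute size rests on those lengths and intervals for counting error are not given. The kit named in the labels' protocols does not mark strand, and none of the 8 genes shares exons with another annotated gene.

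From the deposited FPKM, trimmed-mean scaling factors (0.746 to 1.3, trimming 30% of the ratios and 5% of the levels) were computed, and the log2 of scaled FPKM plus 1 entered a limma model (version 3.58.1, R 4.3.3; trended, robust variance, 12 residual degrees of freedom) with the 4 groups as terms. A gene was tested where 4 or more libraries had 1 FPKM or more, which held for 13470. The 5 comparisons share libraries. The animal numbers in the labels pair the libraries: after group means were removed, same-animal correlations across genes were 0.308 to 0.532 between the IPs, 0.053 to 0.319 between the inputs, -0.008 to 0.085 for striatal IP with input and 0.085 to 0.172 for hippocampal IP with input. The animal entered as a block in an alternative. Other alternatives changed the pseudocount, the filter, the scaling, the variance model and the libraries used. The subtraction of carried-over RNA was added after the data were seen.

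All 8 genes are named. From each list the genes with the smallest p in IP against input in each region (up to 3), or called between the IPs with an absolute log2 difference of at least 1, could be named, and for likeness the 3 genes with the highest correlation. A result that met this rule for Lpl is not reported here. The members and lists were chosen with earlier results of these data known, so counts over them are descriptions. The fitting procedure was tested on simulated data. Of the labels, 27 had been turned into dates and 2 were repeated, and none of these is named. Figures used Python 3.11.15, pandas 2.3.3 and matplotlib 3.10.9.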

Additional observations from a re-analysis of the deposited data

Results flagged for a closer look

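The regional difference in IP enrichment of Apod, the lipocalin gene, is listed because the interaction of region and fraction passed the test. The striatal change minus the hippocampal change was -1.59 on the log2 scale (limma adjusted p = 0.0112). The IP level was 1.5%, 2.76%, 2.59% and 4.55% of input in the striatum of animals 970, 971, 974 and 977. In their hippocampus it was 5.91%, 12.2%, 5.89% and 13.7%. The IP level was below the input level in 4 of 4 animals in each region, which does not bear on the regional difference. The highest and lowest values within each of 32 groups of 4 libraries, 8 genes in 4 groups, were also compared with the other values, and in 0 of them did one stand apart by Dixon's criterion at the 95% level, where chance gives about 1 in 20.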

How the results depend on the processing

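The IP against input calls of all 8 genes kept their direction and side of the threshold under every alternative run, except that Scarb1 has no value with a filter at 5 FPKM. With the animal as a replicate block, 5 genes were called between the inputs (main 3, range 2 to 5 without each library) and Abcg1 lost its call between the IPs (adjusted p = 0.0524). No other call changed under the block besides those given in the report. Between the IPs, 1 of 8 genes was called with a pseudocount of 5, with no filter or with carry-over subtraction (Abcg1 -0.10, Lpl -0.09), and 1 to 3 without each library. Without each library, Scarb1 ran from -0.01 to 0.24 between the inputs, and the difference of IP enrichment from -0.06 to 0.13 for Clu, -0.15 to 0.22 for Lpl and 0.00 to 0.32 for Abca1, while 1270 to 2904 genes were called for it (main 1859; 2904 without striatal input 977). The same difference changed sign with a pseudocount of 5 (Abcg1 -0.03, Lpl -0.32), median-of-ratios scaling (Clu -0.09, Lpl -0.06), striatal inputs 971 and 974 left out (Apoe -0.32, Clu -0.15) and carry-over subtraction (Clu -0.07, Abcg1 -0.42, Lpl -0.92), where 2 genes were called, Apod and Lpl (adjusted p = 0.0425). The IP to input ratio was below the subtracted share in 7 of 8 IPs for Lpl, 6 of 8 for Apod and 4 of 8 for Abcg1, so the subtraction empties most of these IPs by construction, its values for them mainly restate the inputs, and they say nothing on whether the calls hold. With no scaling, Abca1 was called between the IPs (0.59, adjusted p = 0.007), the median of all genes was -0.25 in striatum and -0.51 in hippocampus for IP against input, and the share of calls that were higher was 36.1% (main 51.6%), 26.0% (main 45.9%), 69.4% between the IPs (main 57.2%) and 72.2% for the difference (main 61.4%), or 47.7% for the difference with median-of-ratios scaling. Causes were not tested. Low fragment numbers limit Scarb1, Abcg1, and Apod in the IPs.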
